A study of Mus musculus with 4 samples.

Results

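The genes described here encode the protein parts of the cytosolic ribosome and the factors that load it and drive it along messenger RNA. They were chosen by symbol, as Rpl, Rps or Rplp followed by a digit, or Eif or Eef followed by a digit. S6 kinase genes, Rps19bp1, pseudogenes and Eif2ak2 were left out. The rule gave 158 genes, of which 88 were ribosomal protein genes and 70 translation factor genes, among 23779 genes with a symbol in the count table. They had 222 of its 32915 transcript records, and each gene was represented by its most abundant record. RNA was sequenced from BV-2, an immortalised mouse microglial cell line. It was kept as control in 2 libraries, and 2 other libraries came from cells given lipopolysaccharide (LPS) at 10 ng/ml for 4 h; the control titles also carry 4 h. LPS, a glycolipid of the bacterial outer membrane, is detected by macrophages and microglia through Tlr4. The growth protocol also describes shaking microglia off mixed glial cultures, whereas each sample is labelled as the line. The labels do not say whether replicates were separate cultures, so p-values measure only the spread between these libraries, which may be technical.

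Each ribosome is built from a large and a small subunit, and most of their proteins are needed in equal numbers. Initiation factors (eIFs) bring the first transfer RNA and the messenger RNA to the small subunit, and elongation factors (eEFs) then deliver each further transfer RNA and move the ribosome on. Supply of these proteins is known to be set largely at translation. Many of their messenger RNAs open with a C and a run of pyrimidines, the terminal oligopyrimidine tract, through which mTOR signalling and the protein LARP1 control how well they are translated. The libraries measured RNA amount and not translation, and in such bulk RNA fewer cells and less RNA per cell cannot be told apart.

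The start sites of some of these genes show that feature, which the symbol rule did not use. RefSeq start windows (GRCm38.p6) were found for 67 ribosomal protein and 54 translation factor genes. A C at an annotated start followed by at least 4 bases that were each C or T was present in 15 of the 67 ribosomal protein genes (22.4%), in 2 of the 54 factor genes (3.70%), Eif2s3x and Eif3f, and in 3.01% of all 27025 genes with a window. Within 5 bases of the start on either side, the motif was present in 47.8%, 27.8% and 21.2%. The letters CCGGAAG, on either strand of the 250 bases before the start, were found in 26.9% of ribosomal protein genes, 22.2% of factor genes and 7.83% of all genes. A match describes the letters of the window, not a working site, and annotated starts can be some bases off. The lines below run 5′ to 3′ on the gene's own strand, from 10 bases before the annotated start to 20 bases from it onward, with the C and pyrimidine run in capitals. The first 6 show the tract in members of both subunits and in the eIF2 and eIF3 complexes, and the last 3 show windows without it, in factor genes that appear below.
Rps6 at chr4:86857348-86857377, minus strand: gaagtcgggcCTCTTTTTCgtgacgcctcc
Rpl15 at chr14:18270967-18270996, minus strand: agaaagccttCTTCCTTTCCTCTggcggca
Rpl35 at chr2:39005112-39005141, minus strand: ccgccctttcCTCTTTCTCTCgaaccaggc
Rps10 at chr17:27635225-27635254, minus strand: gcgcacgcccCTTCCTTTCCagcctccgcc
Eif2s3x at chrX:94212632-94212661, minus strand: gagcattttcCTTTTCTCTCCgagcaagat
Eif3f at chr7:108934405-108934434, plus strand: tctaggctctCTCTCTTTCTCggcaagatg
Eif1 at chr11:100319939-100319968, plus strand: ggcgtcacaggggcggctatataagtgaat
Eif4ebp2 at chr10:61452650-61452679, minus strand: cgcagcgggacgaccgggcgagagcaggcg
Eef1e1 at chr13:38659009-38659038, minus strand: gtcctagctgtgcaggccccgcctccctag

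The libraries held 2778686 to 3368693 counts in all, and 902176 to 1425303 without the 5 most abundant records. The 9 microglial markers summed to 888 and 1208 unscaled counts in controls and 1776 and 1705 after LPS. Of these Csf1r had 392 to 560 counts, Cd68 63 to 86, Tmem119 11 to 24 and P2ry12 0 to 5, Aif1, Cx3cr1 and Ptprc had at most 9, and Itgam was listed at 0 in each library. Spi1, the myeloid transcription factor PU.1, was the only marker called of 4 tested: it had 412 and 519 counts in controls and 1213 and 1154 after LPS (log2 fold change 1.15, edgeR adjusted p 0.00391). Most of the microglial sum after LPS was thus Spi1. The other tested microglial markers had negative log2 fold changes, -0.21 for Csf1r, -0.35 for Cd68 and -0.73 for Tmem119. Astrocyte markers summed to 0 or 1 count per library, neuronal markers to 0 to 2, and oligodendrocyte and fibroblast markers were at 0. Ribosomal protein records took 10.4% and 9.42% of the counts outside the 5 most abundant records in the control libraries and 10.0% and 9.89% after LPS. Translation factor records took 2.98% and 2.89% in controls and 3.03% and 2.99% after LPS. The ribosomal protein shares after LPS lay between those of the controls, and the factor shares after LPS lay just above both. Of all counts, ribosomal protein records took 3.38% and 4.39% in controls and 4.24% and 4.26% after LPS. Factor records took 0.967% and 1.35% of all counts in controls and 1.28% and 1.29% after LPS, so on that base the LPS shares of both sets lay between the controls.

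How far a member could be measured went with the number of its transcript records. Of the 129 members with 1 record, 113 passed the filter on low counts, against 4 of the 29 with 2 or more records (Rps27, Eif2b3, Eif4a2 and Eif4e2). Over all genes the same shares were 34.8% and 6.09%. Members with 1 record had a median of 3292 counts over the 4 libraries, and those with 2 or more a median of 2. Core ribosomal protein genes at or near 0 included Rpl22, Rpl31, Rpl38 and Rps27a with 0 counts, Rpl19 with 2, Rpl34 with 3, Rpl35a with 10, Rpl30 with 14 and Rps24 with 21 counts over all their records. Rpl26, with 1 record, was also listed at 0. Among factors, Eif4a1, the main helicase of initiation, had 2 records at 0. Eif5a had 22 counts over 9 records, Eif5 20, Eif4g2 33 and Eef1d 19. Eif4g1, the scaffold that joins cap-binding protein and helicase, had 1 record with 0 to 2 counts per library. Eef2k, the kinase that inhibits eEF2, had 2 counts in all. Since the ribosome cannot do without proteins such as Rpl19 or Rps24, a value at 0 in this table does not show that a gene was silent. How reads shared by records or by pseudogene copies were counted is not given in the sources used here, and its part in these values was not tested. The other members below the filter were paralogs, retrogenes or further factor genes (Rpl10l, Rpl32l, Rpl37rt, Rpl39l, Rpl3l, Rps23rg1, Rps27rt, Rps4l, Eif2d, Eif2s3y, Eif2ak4, Eif2b4, Eif3j1, Eif3j2, Eif3k, Eif4a3l1, Eif4e1b, Eif4e3, Eif4g3, Eif4enif1, Eif5a2, Eef1akmt3, Eef1akmt4-ece2 and Eef1a2), each with at most 19 counts over the 4 libraries.

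**Figure D1:**
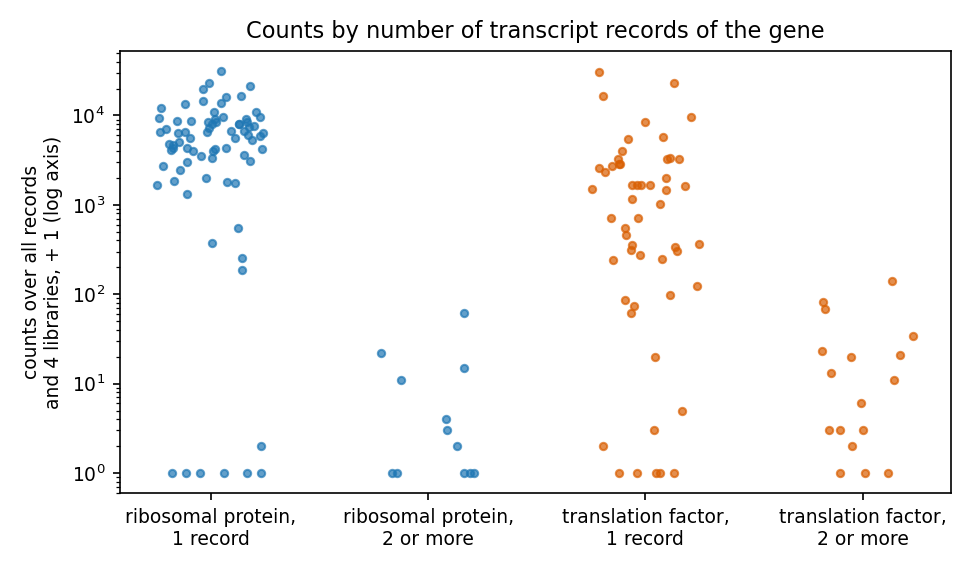
Counts summed over all records of a gene and over the 4 libraries, plus 1, on a log axis, with 1 point per member, split by class and by whether the gene had 1 record or more. Points of genes with 1 record lie mostly above 100 counts, with some at 0, whereas genes with 2 or more records reach at most 140.

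None of the 117 members tested passed the test for a difference between LPS and control. In edgeR's quasi-likelihood test across 6981 records, 386 (5.53%) had an adjusted p below 0.05, and 0 of 70 ribosomal protein genes and 0 of 47 translation factor genes were among them. The lowest adjusted p of the members was 0.196, for Eif6. The DESeq2 Wald test also called 0 of them. At an unadjusted p below 0.05 there were 0 of 70 ribosomal protein genes and 5 of 47 factor genes (Eif6, Eif1, Eef1e1, Eif4ebp2 and Eif2ak3), against 15.4% of all records. A p above the threshold does not show equal levels, so the intervals matter. The 95% interval of the log2 fold change lay within a 2-fold change for 69 of 70 ribosomal protein genes and 41 of 47 factor genes. Over all 6981 records it did so for 4207. Within a 1.5-fold change it lay for 58 of 70 ribosomal protein genes and only 15 of 47 factor genes, against 1085 of all records. These sets also differed in level. Median levels were 1614 normalised counts for ribosomal protein genes, 364 for factor genes and 66.6 for all records tested. The median SE was 0.181, 0.218 and 0.272 in that order.

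The classes differed in how far their members scattered, and whether their unlike levels account for this was not tested. Log2 fold changes of the 70 ribosomal protein genes ran from -0.16 to 0.34 with a median of 0.08, and those of the 47 factor genes from -0.74 to 0.54 with a median of 0.11. The median over all records tested was -0.01. Above a mean of 200 normalised counts, a level set after values were seen, there were 65 ribosomal protein genes, and the standard deviation of the log2 fold changes was 0.077. It was 0.179 for 27 factor genes and 0.830 for all 1364 records above that level. None of those 65 ribosomal protein genes was beyond 0.5 in either direction, against 1 of the 27 factor genes and 13.0% of the 1364 records. Both LPS libraries lay above both controls in 18 of 70 ribosomal protein genes and 12 of 47 factor genes, against 21.4% of all records. Both lay below both controls in 0 of 70 and 5 of 47, against 21.9% of all records.

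**Figure D2:**
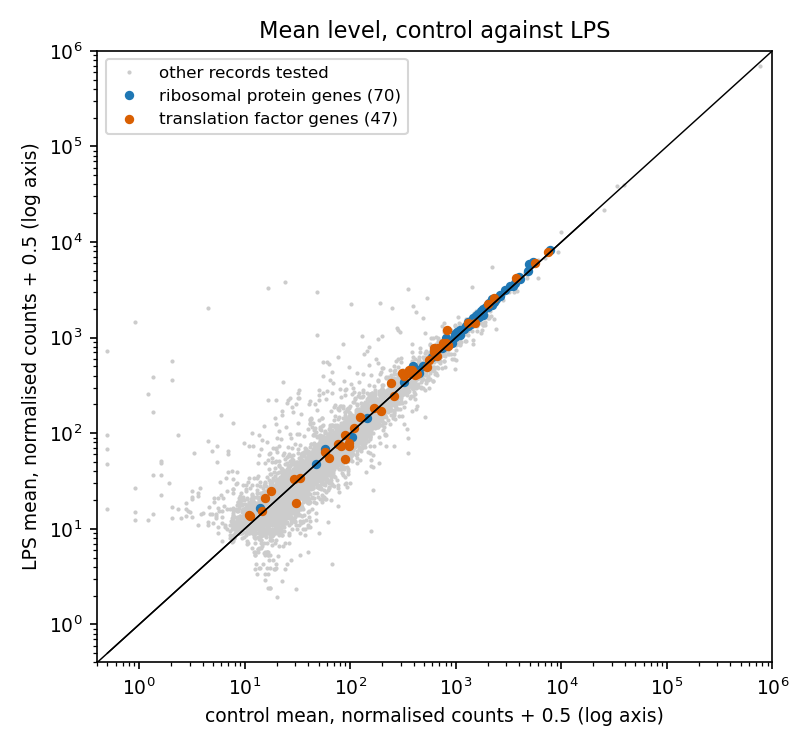
Mean normalised counts in controls (x axis) and after LPS (y axis), each plus 0.5 on log axes, for all records tested (grey), ribosomal protein genes (blue) and translation factor genes (orange); the line marks equal levels. The 70 ribosomal protein genes hug the line over their whole range, while grey points far above it are records induced by LPS.

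Large subunit genes lay close to no change. Of 41 tested, 37 had positive and 4 negative log2 fold changes, from -0.05 to 0.29, with a median of 0.08. Over all 6981 records 3375 were positive. The median of all ribosomal protein genes was 0.19 without control replicate 1 and -0.01 without control replicate 2, so the signs rested on the control kept. Rplp0, part of the stalk that binds elongation factors, was the most abundant by normalised counts, with 8929 and 6611 in the controls and 8301 and 8165 after LPS. Its LPS values lay between those of the controls (log2 fold change 0.08, SE 0.203, adjusted p 0.936). Rpl3, of the peptidyl transferase centre region, had 5746 and 5038 in controls and 6253 and 6000 after LPS. Both LPS values were higher, by less than the test could call (log2 fold change 0.18, 95% interval -0.22 to 0.59). Rpl4 had 3844 and 4065 in controls and 4238 and 4269 after LPS, again without overlap (log2 fold change 0.10, SE 0.176, adjusted p 0.895).

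The largest log2 fold change of the large subunit was that of Rpl14, 0.29. Its control values of 996 and 618 differed more from each other than did the LPS values of 921 and 1039, and the groups overlapped (adjusted p 0.688). Rpl7l1, a paralog of Rpl7 with a role in ribosome assembly, had 640 and 609 normalised counts in controls and 745 and 744 after LPS, with tight pairs that did not overlap (log2 fold change 0.25, SE 0.172, adjusted p 0.594). Rpl22l1, a paralog of Rpl22, had 53.4 and 60.8 in controls and 60.1 and 76.3 after LPS, which overlapped. Rpl22 itself was listed at 0, so the balance between these paralogs could not be read. Per kb of transcript, averaged over the 4 libraries, Rplp1 had the highest level of the ribosomal protein genes, with 6771 normalised counts per kb, followed by Rplp0 with 5892 and Rpl41 with 5529. The median of the large subunit genes was 1783 per kb and that of the small subunit genes 2166.

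Small subunit genes had values of much the same size. Of 29 tested, 23 had positive and 6 negative log2 fold changes, from -0.16 to 0.34, with a median of 0.08. The same limit from the control libraries applies to these signs. Rps2, a protein near the mRNA entry site, had 5767 and 4163 normalised counts in controls and 6051 and 5626 after LPS, which overlapped (log2 fold change 0.23, SE 0.205, adjusted p 0.734). Rps7 had 5154 and 4530 in controls and 5090 and 4930 after LPS. Rps3, at the mRNA entry channel, had 4531 and 3541 in controls and 4152 and 4049 after LPS, with a log2 fold change of 0.02. In Rps7 and Rps3 the LPS libraries lay inside the control range. Rps6, the target of S6 kinase, had 1879 and 1728 in controls and 2009 and 1991 after LPS, higher in both LPS libraries (log2 fold change 0.15, 95% interval -0.23 to 0.53).

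Rps26, which lies at the mRNA exit channel, had the largest log2 fold change of all ribosomal protein genes. It had 401 and 391 normalised counts in controls and 525 and 478 after LPS, without overlap (log2 fold change 0.34, SE 0.177, adjusted p 0.414). Its 95% interval ran from -0.05 to 0.73. Rps27l, a paralog of Rps27 known as a p53 target, had 470 and 428 in controls and 449 and 409 after LPS, with overlap and a log2 fold change of -0.06. Rps27 was represented by a non-coding record with 12.7 and 14.3 in controls and 15.7 and 16.6 after LPS, so the pair cannot be compared as proteins. Ribosomal protein genes have many near-identical pseudogene copies that may share their reads, which makes their absolute levels uncertain.

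Split by the motif at the annotated start base, ribosomal protein genes had overlapping ranges of fold changes. The 11 tested ribosomal protein genes with the C and pyrimidine run at the start, such as Rps6 and Rpl35 shown above, had log2 fold changes from -0.03 to 0.29 with a median of 0.08. The 41 tested without it had values from -0.06 to 0.34 with a median of 0.09. Of the 67 ribosomal protein genes with a window, 15 had the motif at the annotated start and 32 within 5 bases of it. The 41 may thus include genes whose tract begins beside the annotated base. This split therefore cannot tell whether the tract goes with fold change.

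**Figure D3:**
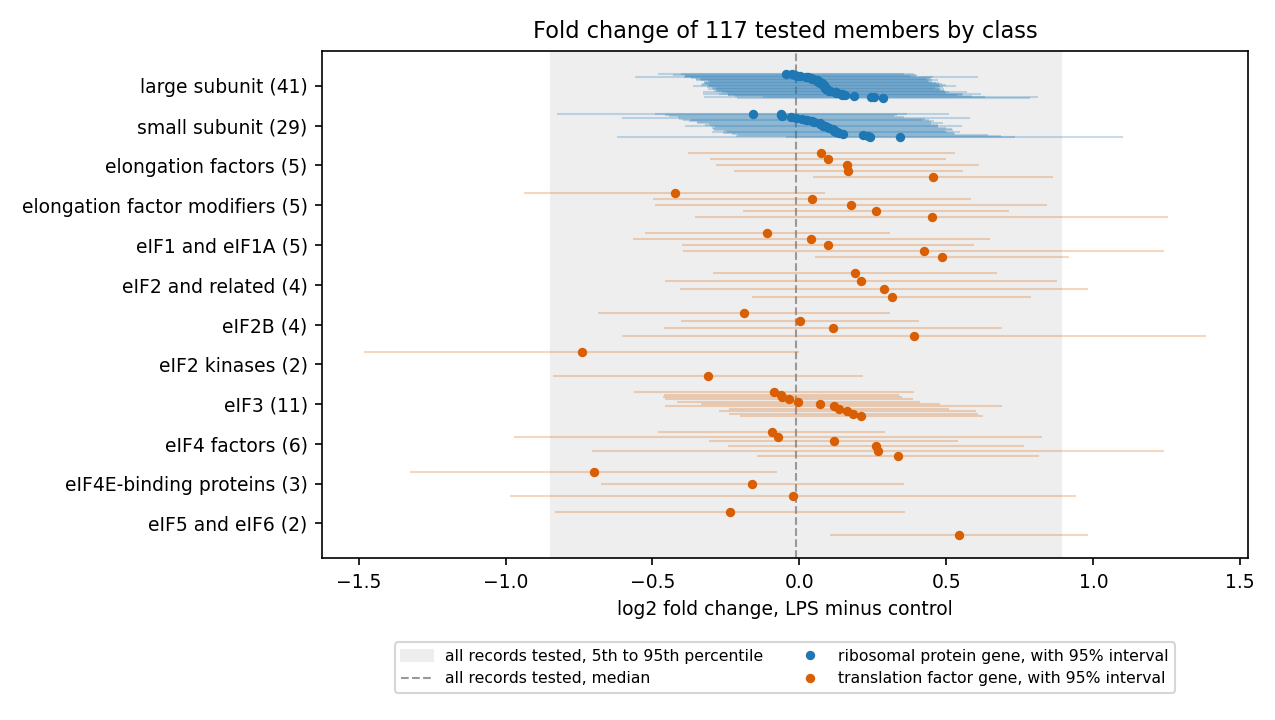
Log2 fold change of each of the 117 tested members (points) with its 95% interval (lines), grouped by class with the number of genes in brackets; the grey band spans the central range of all records tested, from the 5th to the 95th percentile, and the dashed line their median. Ribosomal protein genes cluster between -0.16 and 0.34, and the factor classes spread from -0.74 to 0.54.

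The elongation factors proper were among the most abundant members. Eef2, which moves the ribosome along by a codon, had 8723 and 6362 normalised counts in controls and 8272 and 7605 after LPS, inside the control range (log2 fold change 0.07, SE 0.207, adjusted p 0.944). Eef1a1, which delivers transfer RNA, had 6037 and 5252 in controls and 5992 and 6082 after LPS. Its level per kb, 3256, was the highest of the factor genes, ahead of Eef2 with 2506. The exchange factor subunits Eef1b2 and Eef1g had log2 fold changes of 0.17 and 0.16. All 5 elongation factors tested had positive values, but those of Eef2, Eef1a1 and Eef1g were negative without control replicate 2.

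Eef1e1, a scaffold protein of the multi-synthetase complex rather than an elongation factor in the strict sense, stood highest in this class. It had 280 and 333 normalised counts in controls and 410 and 434 after LPS, without overlap (log2 fold change 0.46, SE 0.186). Its unadjusted p was below 0.05 and its adjusted p 0.258. The enzymes that modify elongation factors were low: Eef1aknmt, a methyltransferase of eEF1A, had 103 and 92.0 in controls and 75.8 and 68.5 after LPS, a log2 fold change of -0.42 with an adjusted p of 0.454. Eef1akmt1 had 122 and 126 in controls and 153 and 145 after LPS, and Eef1akmt2 a log2 fold change of 0.45 at 14.1 to 26.8 normalised counts per library. None of the 5 modifier genes tested passed.

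Among initiation factors, Eif6 and Eif1 had the largest positive values. Eif6, which keeps the subunits apart and is needed for large subunit assembly (chromosome 2, 155819837 to 155826925), had 961 and 687 normalised counts in controls and 1235 and 1158 after LPS. Both LPS libraries lay above both controls (log2 fold change 0.54, SE 0.200, 95% interval 0.10 to 0.98). It did not pass the test over all records (adjusted p 0.196). When each library's dependence on transcript GC and length was removed, it passed at 0.62 (adjusted p 0.00168), and it also passed without control replicate 1, at 0.80. The DESeq2 Wald test gave Eif6 an adjusted p of 0.259, and over all alternatives its log2 fold change ran from 0.32 to 0.80.

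Eif1, which guards the choice of the start codon (chromosome 11, 100319949 to 100322099), had 267 and 214 normalised counts in controls and 351 and 320 after LPS. The groups did not overlap (log2 fold change 0.49, SE 0.196, adjusted p 0.254). It passed when the GC and length dependence was taken out, at a log2 fold change of 0.48 and an adjusted p of 0.0255, and it passed without control replicate 1. Its paralog Eif1b, at 14.1 and 16.0 in controls and 18.5 and 22.5 after LPS, had a log2 fold change of 0.42 with an interval from -0.40 to 1.24. Eif1a and Eif1ax, which encode forms of the partner factor eIF1A, had 0.04 and 0.10, and both overlapped between groups.

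The eIF2 complex, which carries the initiator transfer RNA, showed how much a control library could matter. Eif2s1, its phosphorylated alpha subunit, had 492 and 760 normalised counts in controls and 766 and 796 after LPS. The log2 fold change was 0.31 and the adjusted p 0.602. Eif2s2, the beta subunit, had 222 and 505 in controls and 391 and 460 after LPS, and Eif2s3x, the gamma subunit, 2920 and 4492 against 4056 and 4404. Eif2a, an alternative carrier of initiator transfer RNA, had 188 and 452 in controls and 366 and 426 after LPS. In all 4 genes control replicate 1 was the lowest library, and for Eif2s2, Eif2s3x and Eif2a control replicate 2 was the highest. Without control replicate 2 all 4 were called higher, with log2 fold changes of 0.67, 0.94, 0.53 and 1.07 in the order given. Without control replicate 1, Eif2s2, Eif2s3x and Eif2a had values of -0.25, -0.09 and -0.19 and Eif2s1 one of 0.04, and none was called.

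The exchange factor eIF2B, which recharges eIF2, and the eIF2 kinases, which block that step, were lower in abundance. Eif2b5, the catalytic subunit, had 440 and 374 normalised counts in controls and 423 and 389 after LPS, a log2 fold change of 0.00 with an interval from -0.40 to 0.41. Eif2b1 and Eif2b2 had 0.11 and -0.19, and both overlapped between groups. Eif2ak3, which encodes the endoplasmic reticulum stress kinase PERK (chromosome 6, 70844484 to 70905241), had 26.7 and 32.9 in controls and 18.5 and 17.6 after LPS. Both LPS libraries lay below both controls (log2 fold change -0.74, SE 0.336, adjusted p 0.323), the lowest value of all members. Eif2ak1, the haem-regulated kinase, had 84.4 and 111 in controls and 82.3 and 76.3 after LPS, also without overlap (log2 fold change -0.31, adjusted p 0.668). Eif2ak4, the amino acid sensor GCN2, was below the filter with 12 counts over its records.

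The eIF3 scaffold, which docks messenger RNA on the small subunit, had 11 of 14 genes tested, with values from -0.09 to 0.21 and a median of 0.07. Eif3c, the most abundant, had 1287 and 1313 normalised counts in controls and 1396 and 1461 after LPS, without overlap but with a log2 fold change of 0.14 (SE 0.170). Eif3g had 850 and 659 in controls and 889 and 853 after LPS, a log2 fold change of 0.21 with an adjusted p of 0.739. Eif3a, the largest subunit, had 224 and 292 in controls and 213 and 276 after LPS. In both groups of Eif3a the second library was the higher one, and the groups overlapped.

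The cap-binding and helicase factors had values from -0.09 to 0.33. Eif4e, the cap-binding protein, had 281 and 433 normalised counts in controls and 457 and 450 after LPS, just without overlap (log2 fold change 0.33, SE 0.218, adjusted p 0.569). Its value was 0.69 without control replicate 2, where it was called, and 0.065 without control replicate 1, where it was not. Eif4a3, the helicase of the exon junction complex, had 475 and 293 in controls and 460 and 454 after LPS, and it was called without control replicate 1, at 0.64, and stood at -0.057 without control replicate 2. Eif4b, a helicase cofactor, had 1591 and 1417 in controls and 1475 and 1341 after LPS, with overlap and a log2 fold change of -0.09.

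The 3 tested genes of eIF4E-binding proteins, which hold back cap-dependent initiation until mTOR phosphorylates them, had negative values, although that of Eif4ebp3 turned positive without a filter and by DESeq2. Eif4ebp2 (chromosome 10, 61428491 to 61452790) had 110 and 68.4 normalised counts in controls and 51.8 and 55.7 after LPS. The groups did not overlap, although the controls differed widely (log2 fold change -0.70, SE 0.284, 95% interval -1.33 to -0.08, adjusted p 0.256). Without control replicate 2 it was -1.03 and called, and over all alternatives it ran from -1.03 to -0.35. Eif4ebp1 had 78.8 and 85.2 in controls and 75.8 and 71.4 after LPS. The log2 fold change was -0.16 and the adjusted p 0.876. Eif4ebp3 had 9.85 to 18.6 over the 4 libraries, with overlap and a log2 fold change of -0.02. Of the joining factors, Eif5b, a GTPase that brings the subunits together, had 52.0 and 73.4 in controls and 57.3 and 50.9 after LPS.

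**Figure D4:**
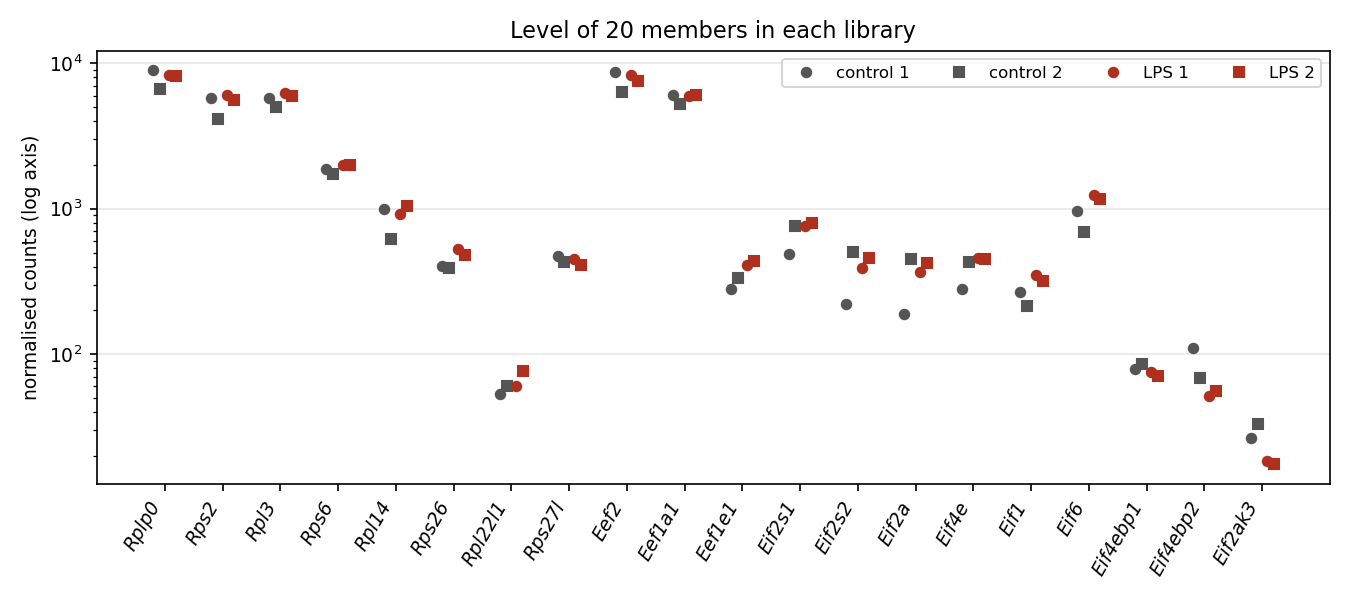
Normalised counts (log axis) of 20 members in each of the 4 libraries; grey marks are controls and red marks LPS, circles replicate 1 and squares replicate 2. In Eif6, Eif1 and Eef1e1 both red marks lie above both grey ones, in Eif4ebp2 and Eif2ak3 below, and in Eif2s2 and Eif2a the widest gap is that between the controls.

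The control pair limited these comparisons more than the LPS pair. Across the 117 members, the ratio of control replicate 2 to replicate 1 reached 2.90 in Eif4a2, while that of the LPS replicates ran from 0.684 to 1.46. The control ratio was over 1.5 in 8 members, all translation factor genes, and under 1/1.5 in 8, of which 5 were ribosomal protein genes. It went with GC content of the transcript, with Spearman's rho of -0.656 across the 117 members and -0.662 across all records. For the LPS pair rho was -0.237 and -0.264. Genes are not independent replicates, and all points share the same 2 libraries. The 4 tested eIF2 and related genes had a median GC content of 42.9%, against 51.7% in the ribosomal protein genes, and a median control ratio of 1.91 against 0.878. Whether GC content accounts for that difference in ratio was not tested. In the LPS contrast with the GC and length trend removed, Eif6 and Eif1 were the only members called of the 117. Of all 6981 records, 469 were called higher and 265 lower in that fit.

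**Figure D5:**
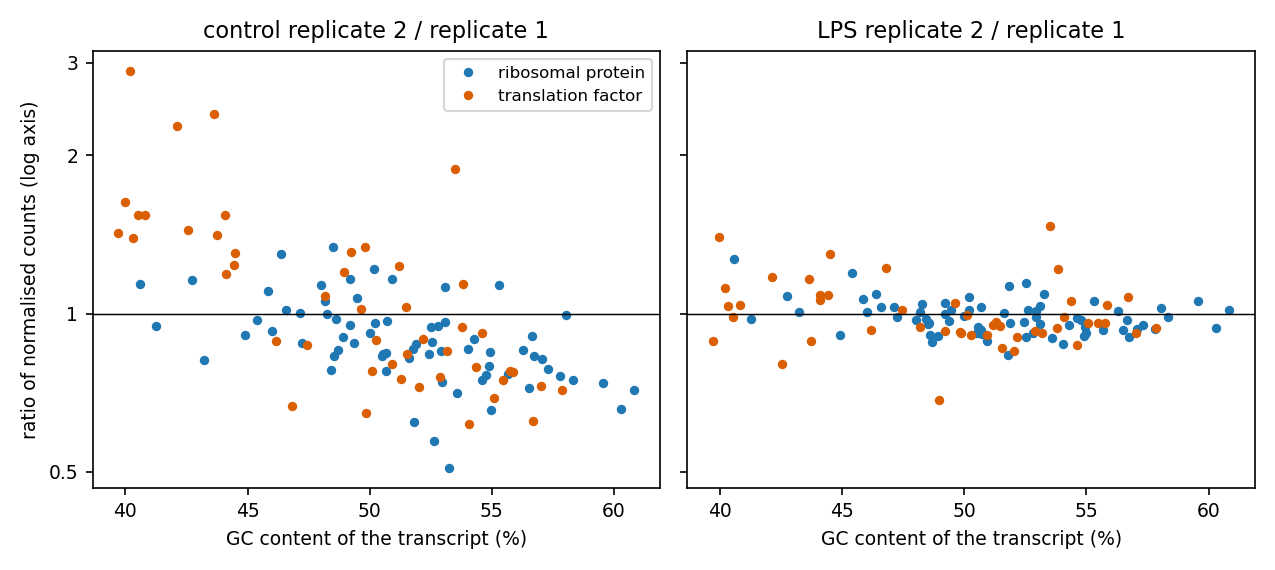
Ratio of normalised counts between the replicates of each group (log axis) against GC content of the transcript in percent, with 1 point per tested member; the line marks a ratio of 1. Control ratios (left) reach 2.90 at low GC content and lie mostly below 1 at high GC content, and LPS ratios (right) stay between 0.684 and 1.46.

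With 1 control library left out, the spread came from the closer LPS pair, and calls appeared whose identity depended on the library. Calls over all records rose as well without either control, so such calls were not particular to the members. Without control replicate 1, ribosomal protein genes called higher were Rplp0 (log2 fold change 0.32), Rps2 (0.49), Rpl13a (0.39), Rps10 (0.41), Rpl14 (0.66), Rplp2 (0.48) and Rps9 (0.44). Factor genes called higher there were Eef2 (0.32), Eif6 (0.80), Eif1 (0.65), Eif3g (0.40), Eef1g (0.41), Eif4h (0.34), Eif3h (0.40) and Eif4a3 (0.64). Without control replicate 2, those called higher were Rps4x, Rpl23, Eif2a, Eif4e, Eif3e, Eif2s3x, Eef1e1, Eif2s2 and Eif2s1, and Eif4ebp2 was among those called lower. No member was in both sets of calls. Members outside the naming rule in these sets are named because they were called there. Without LPS replicate 1 or 2 no member was called. The median log2 fold change of the ribosomal protein genes was 0.19 without control replicate 1 and -0.01 without control replicate 2, so even its sign rested on which control was kept.

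Among regulators of translation, the same fit gave 2 calls, set beside 5.53% called over all records. Of 14 measured genes on a list drawn up for the mTOR pathway, 0 were higher and 1 was lower. That gene, Mknk2, encodes a kinase of eIF4E and not a component of the mTOR pathway in the strict sense. Mknk2 fell from a mean of 607 ± 117 to 351 ± 40.5 normalised counts (SD, n = 2). Its log2 fold change was -0.78, with an edgeR adjusted p of 0.0452. Larp1, the most abundant of this list, which binds terminal oligopyrimidine messages, had 973 ± 68.0 and 1112 ± 90.3 (log2 fold change 0.19, adjusted p 0.749). Of 6 measured genes of the eIF2 stress response, Ppp1r15a, the subunit that directs a phosphatase to eIF2 alpha, rose from 30.9 ± 13.9 to 97.6 ± 17.6, a log2 fold change of 1.72 with an adjusted p of 0.00864. Eif2ak2, the RNA-sensing eIF2 kinase left out of the members and named here outside the naming rule, had 20.1 ± 2.59 and 31.9 ± 4.63 (log2 fold change 0.64, adjusted p 0.415). Also outside the naming rule, Ppp1r15b, Dnajc3 and Nck1 of that list had log2 fold changes of 0.27, -0.23 and -0.39, and none was called.

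The ribosomal proteins whose symbols fall outside the rule lay in the members' range. Rack1 and Rpsa had log2 fold changes of 0.10 and 0.06. None passed among 31 ribosome biogenesis genes (median 0.10), 14 aminoacyl-tRNA synthetase genes (median 0.04), 11 genes of termination and recycling (median 0.11) or 5 poly(A)-binding protein genes (median -0.08), where 2, 0, 2 and 1 had an unadjusted p below 0.05. Of 72 measured genes of the mitochondrial ribosome, which makes proteins inside mitochondria, 1 was higher and none lower, with a median of -0.02. That gene, Mrpl52, rose from 71.2 ± 2.78 to 150 ± 4.62, a log2 fold change of 1.08 with an adjusted p of 0.0128. The most abundant gene of each of these lists, Ncl, Lars, Abce1, Pabpc1 and Mrpl12 in that order, had log2 fold changes of -0.04, 0.07, 0.22, -0.08 and -0.06, and Asns, the most abundant of the eIF2 stress response, had 0.25.

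Histone genes, measured in the same libraries, moved more widely. Of 56 measured, 24 had an unadjusted p below 0.05, against 15.4% of all records, and the median log2 fold change was -0.47. By adjusted p, 1 was higher and 3 were lower: H3f3b, a replication-independent histone gene, rose by 0.83 on the log2 scale, and H2bc14, H3c2 and H2bc21 fell by 0.78, 0.90 and 1.15. H2bc18, the most abundant, had 5998 ± 1686 and 4217 ± 176 normalised counts (SD, n = 2, adjusted p 0.288). What moved the histone genes, and whether this bears on the members, was not tested.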

How the data were processed

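RNA-seq libraries of BV-2 cells, 2 control and 2 LPS, were grouped by their titles. Libraries were depleted of ribosomal RNA, made with a directional kit from random-primed RNA and read paired-end, per the labels' protocols. The deposited table holds whole-number counts per RefSeq record. Its name says normalised, but its totals differ, so the values were taken as unnormalised. The submitters' processing notes list the counter HTSeq 0.6.1, the aligner TopHat2 2.0.10, Trimmomatic 0.33, CASAVA 1.8.2 and Cufflinks 2.2.1, with build mm10. Which step used which, and the strand setting, is not given in the sources used here.

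Records were given symbols from RefSeq gene tables of GRCm38.p6, and GC content and length from GENCODE M21 transcripts (mm10) matched by accession. filterByExpr (minimum count 10) kept 6981 records. TMM scaling and edgeR's quasi-likelihood test (edgeR 4.0.16, R 4.3.3), without covariates, compared LPS with control, with Benjamini-Hochberg adjustment at 0.05. Normalised counts are counts scaled to the mean effective library size of 3108147. The fit was tested on simulated data. DESeq2 1.42.0, other scalings and filters, a replicate block, left-out libraries, summed records and a GC and length trend were alternatives. Intervals cover the fit's error only. Members, gene lists and classes were chosen with earlier results of these data known. Named genes were the called members, the 3 most abundant and the 3 of largest change in each class, and listed sentinels. From other lists, called genes and the most abundant were named. Some genes are not reported here by name.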

Additional observations from a re-analysis of the deposited data

How the results depend on the processing

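No member was called under other scalings, filters, summed records or DESeq2; the values printed for ribosomal protein genes and factors there kept their side of the threshold. The labels do not say whether same-numbered libraries were paired. Their deviations correlated at 0.231, and whether this came from a pairing was not tested. With 2 pairs the replicate block in edgeR gave 1 factor gene higher (Eif6, adjusted p 0.0291), with 401 higher and 288 lower records against 267 and 119. With the GC and length trend removed, 2 factor genes were higher, and 469 records were higher and 265 lower. That fit with the replicate block, added after the data were seen, gave 1 ribosomal protein gene (Rpl14) and 3 factor genes (Eif6, Eif1 and Eef1e1) higher and 1 factor gene (Eif4ebp2) lower, with 617 and 456 records. A minimum mean of 50 gave 164 and 54 records, no filter gave 209 lower, and DESeq2 56 lower. Leaving out 1 library gave 0 to 7 ribosomal protein genes higher and 0 to 1 lower, 0 to 8 factor genes higher and 0 to 1 lower, 178 to 752 records higher and 42 to 601 lower. What produced these shifts was not tested. The factor median, 0.11, was 0.12 with the most abundant records left out, 0.14 without a filter, 0.069 with a mean of at least 50, 0.082 with the trend removed, 0.10 with trend and replicate block, 0.13 by DESeq2 and 0.072 to 0.13 with a library left out.

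Under the trend fit Eif1a was -0.076, Eif3b 0.069, Eif3e -0.0091 and Rps3 -0.013, and with the replicate block added Eif1a was -0.059, Eif3b 0.068, Eif3e -0.012, Eif4ebp3 0.034 and Rps3 -0.00022. The replicate block alone gave Eif3b 0.0059, Eif4a2 0.029 and Eif4ebp3 0.049. A mean of at least 50 gave Eif2b5 -0.028 and Rps3 -0.0040. Eif3b was 0.0092 with the most abundant records left out, 0.028 without a filter and 0.016 by DESeq2, and Eif4ebp3 was 0.0078 without a filter and 0.048 by DESeq2. With a library left out, log2 fold changes that changed sign ran as follows: Eef1a1 -2.5e-05 to 0.20, Eef1g -0.053 to 0.41, Eef2 -0.14 to 0.32, Eef2kmt -0.13 to 0.21, Eif1a -0.25 to 0.45, Eif1ad -0.28 to 0.080, Eif1ax -0.12 to 0.39, Eif2a -0.19 to 1.07, Eif2b1 -0.060 to 0.36, Eif2b2 -0.44 to 0.087, Eif2b5 -0.12 to 0.12, Eif2s2 -0.25 to 0.94, Eif2s3x -0.088 to 0.53, Eif3a -0.28 to 0.12, Eif3b -0.18 to 0.19, Eif3e -0.054 to 0.43, Eif3h -0.013 to 0.40, Eif3l -0.18 to 0.075, Eif4a2 -0.56 to 0.97, Eif4a3 -0.057 to 0.64, Eif4e2 -0.024 to 0.51, Eif4ebp3 -0.33 to 0.58, Eif4h -0.081 to 0.34, Eif5b -0.44 to 0.057, Rpl14 -0.024 to 0.66, Rplp0 -0.12 to 0.32, Rps27l -0.13 to 0.0036, Rps3 -0.14 to 0.21, Rps7 -0.041 to 0.14. Without control replicate 1 or 2, 12 and 16 of 55 named members changed sign, and without LPS replicate 1 or 2, 6 and 4.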
